A study of Mus musculus with 8 samples.

Results

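The β-chain repertoire of endogenous CD8+ T (en-T) cells was searched for CDR3s of 12 to 16 residues whose residues at positions 6 and 7, counted from the first cysteine as 1, were both hydrophobic (A, C, F, I, L, M, V, W or Y). In all, 1709 of the 54657 β-chain clonotypes of these lengths met this rule (3.13%), out of 60131 β-chain clonotypes of any length and 113380 clonotypes of both chains. A clonotype is a distinct CDR3 nucleotide sequence in the library of a mouse, and its reads are the deposited counts. The remaining 52948 clonotypes of 12 to 16 residues are called the other clonotypes.

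The libraries came from 3 mice given cyclophosphamide alone (CTXpre) and 5 given cyclophosphamide followed by an anti-CD4 antibody (CTXpre/CD4post), with 1 β-chain library per mouse. All were female C57BL/6 mice of 6 to 8 weeks that received 200000 B16F10 melanoma cells in the skin, 300 mg/kg cyclophosphamide on day 3 to deplete lymphocytes, and on day 5 a transfer of 2000000 T cells from Thy1.1 Pmel-1 mice, whose transgenic receptor recognizes the melanoma antigen gp100, with 10000 IU human IL-2 daily for 3 days. The CTXpre/CD4post mice also received 200 μg of the anti-CD4 clone GK1.5 on days 10, 17 and 24. On day 25, cells positive for CD8 and negative for Thy1.1 were sorted from inguinal lymph nodes and spleen together, a gate that leaves out the transferred cells, and these libraries hold receptor sequences only, so the sorted cell type could not be checked against other markers. Each library held exactly 10000 reads after down-sampling, of which 89.59% to 91.49% fell in CDR3s of 12 to 16 residues.

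The β-chain CDR3 is made where a V, a D and a J segment are joined, with bases trimmed from the segment ends and others inserted at the junctions. Its first residues come from the V segment and its last from the J segment, while its middle, which reaches toward the peptide held by the MHC molecule, holds the D segment and the inserted bases. In mice, hydrophobic residues at positions 6 and 7 of this loop have been linked to self-reactivity of the receptor. No binding or function was measured in these libraries.

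The germline sequences that border positions 6 and 7 are shown first, since they make up part of the bases around these codons. The ends of V segments, from the codon of the first cysteine to the last base before the recombination signal, were read from GRCm38, and capitals mark the bases that reach into codon 6. The 7 segments are the TRBV13 family and the other named segments with the highest and lowest shares of such CDR3s.
TRBV13-1: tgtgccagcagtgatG
TRBV13-2: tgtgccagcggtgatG
TRBV13-3: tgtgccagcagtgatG
TRBV16: tgtgcaagcagcttaGA
TRBV3: tgtgccagcagcttaGC
TRBV17: tgtgctagcagtagaGA
TRBV29: tgtgctagcagtttaTC
These ends lie on the plus strand at chr6:41116453-41116468 (TRBV13-1), chr6:41121817-41121832 (TRBV13-2), chr6:41130570-41130585 (TRBV13-3), chr6:41152214-41152230 (TRBV16), chr6:41048808-41048824 (TRBV3), chr6:41163540-41163556 (TRBV17) and chr6:41271865-41271881 (TRBV29), each in the exon that codes for the V region. The ends of TRBV13-1 and TRBV13-3 are identical. A whole TRBV13 end leaves G as the first base of codon 6, as alanine, valine, glycine, aspartate and glutamate codons have.

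The mouse β-chain locus has 2 D segments, and capitals mark the stretch of TRBD2 that holds its codons for leucine (CTG) and tryptophan (TGG).
TRBD1: gggacagggggc
TRBD2: gggaCTGGgggggc
TRBD1 lies at chr6:41533201-41533212 and TRBD2 at chr6:41542163-41542176 of GRCm38, both on the plus strand. Over the 3 reading frames TRBD1 holds 0 codons for the hydrophobic residues counted here, and TRBD2 holds 2.

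CTXpre/CD4post mice 1 and 2 shared more β-chain nucleotide sequences than other pairs, 178 against 42 to 81 in the other 27 pairs of mice. Of hydrophobic CDR3s they shared 4, and other pairs 0 to 3. Leaving these sequences out of mouse 2, which took away 4 of its members, gave a difference between groups of -0.05 percentage points in the share of clonotypes (exact Mann–Whitney U-test, p = 1.0; -0.06 with them) and kept 8 V and 8 J segments called.

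The share of β-chain clonotypes that were hydrophobic at positions 6 and 7 did not pass a test between the groups. It was 3.32%, 3.11% and 3.07% in the CTXpre mice and 2.92%, 3.11%, 2.80%, 3.44% and 3.28% in the CTXpre/CD4post mice. The highest and the lowest values both belonged to CTXpre/CD4post mice, so the groups overlapped throughout. The mean was 3.17% ± 0.133 (SD, n = 3) against 3.11% ± 0.261 (SD, n = 5), a difference of -0.06 percentage points (CTXpre/CD4post minus CTXpre; Mann–Whitney U-test, exact and two-sided, p = 1.0). With 3 mice against 5, the smallest p this test can give is 0.0357. The mice held 243, 240 and 222 such clonotypes in the CTXpre group and 187, 235, 193, 219 and 170 in the CTXpre/CD4post group.

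Weighted by reads, the share was 3.27%, 2.97% and 2.92% in the CTXpre mice and 2.77%, 3.04%, 2.80%, 3.58% and 2.77% in the CTXpre/CD4post mice. The groups overlapped again, and the mean was 3.05% ± 0.189 (SD, n = 3) against 2.99% ± 0.347 (SD, n = 5), a difference of -0.06 percentage points (exact Mann–Whitney U-test, p = 0.571). Within mice, the share of reads was lower than the share of clonotypes in 7 of 8, by 0.118 percentage points on average (from -0.511 to 0.133), which did not pass the exact two-sided sign-flip test over mice (p = 0.0703, adjusted p = 0.352 over 10 tests of single values). That gap was -0.113 ± 0.0556 percentage points (SD, n = 3) in the CTXpre and -0.120 ± 0.242 (SD, n = 5) in the CTXpre/CD4post group (exact Mann–Whitney U-test, p = 0.786). CTXpre/CD4post mouse 5, which had the fewest clonotypes of any mouse (5184 of 12 to 16 residues), had the widest gap, -0.511 percentage points. The mean gap was -0.311 percentage points without clonotypes of 1 read and -0.154 without CTXpre/CD4post mouse 4 (unadjusted p = 0.0156 for each, exact sign-flip test). It was -0.062 without CTXpre/CD4post mouse 5 (unadjusted p = 0.141) and -0.040 without alanine in the residue set (unadjusted p = 0.523, exact).

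**Figure D1:**
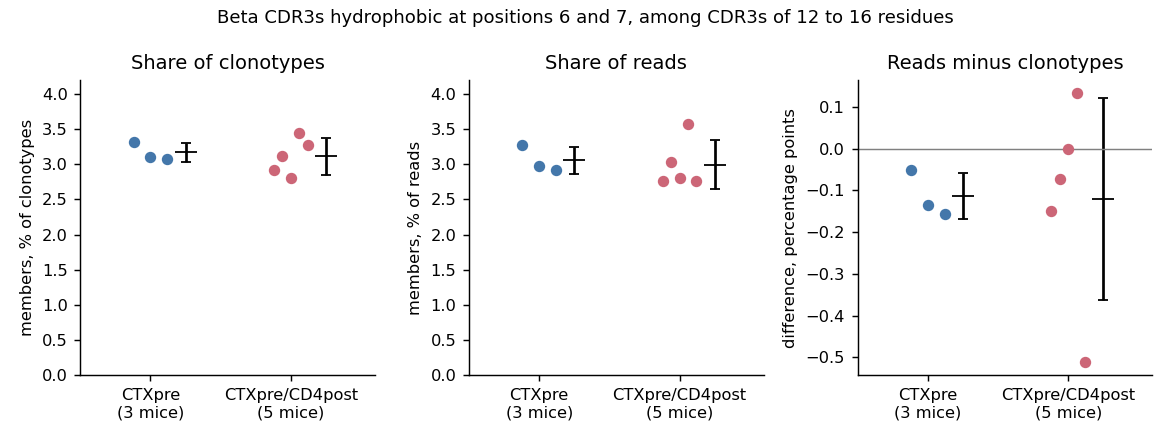
Share of clonotypes (left) and of reads (middle) of 12 to 16 residues that were hydrophobic at positions 6 and 7, in %, and the difference between both shares in percentage points (right); points are mice, bars are the mean and SD. The groups overlap in each plot, and 7 of 8 mice lie below 0 on the right.

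The clonotypes hydrophobic at both positions were mostly seen in 1 read, as were the others. In the CTXpre group 601 of 705 had 1 read, 104 had 2 to 9 and 0 had 10 or more, and the most abundant had 7 reads. In the CTXpre/CD4post group 823 of 1004 had 1 read, 176 had 2 to 9 and 5 had 10 or more, with up to 17 reads. The number with 10 or more reads was 0, 0 and 0 in the CTXpre mice and 1, 1, 0, 2 and 1 in the CTXpre/CD4post mice, a share higher by 0.492 percentage points that did not pass the test (exact Mann–Whitney U-test, p = 0.107, adjusted p = 0.357) and was 0.101 percentage points at 5000 reads per library. Within mice, the share with 10 or more reads differed from that of the others by -0.188 percentage points on average (exact sign-flip test, p = 0.25), or by -0.052 without CTXpre/CD4post mouse 5. This difference was -0.266 at 5000 reads per library (exact sign-flip test, unadjusted p = 0.0234). It was -0.049 without alanine in the residue set (exact sign-flip test, unadjusted p = 0.898). Among the other clonotypes, 30 of 21555 and 203 of 31393 had 10 or more reads, with up to 94 and 162 reads. The share with 1 read was 81.9%, 89.2% and 84.7% in the CTXpre mice and ranged from 76.5% to 90.2% in the CTXpre/CD4post mice (exact Mann–Whitney U-test, p = 0.393). Within mice it differed from that of the other clonotypes by -0.10 percentage points on average, higher in 4 and lower in 4 mice (exact sign-flip test, p = 0.906).

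Mean reads per clonotype were lowest in both group means where both residues were hydrophobic, but not in CTXpre mouse 1 or CTXpre/CD4post mice 3 and 4, and this was not tested. In the CTXpre group the means were 1.24 ± 0.0516 reads for clonotypes hydrophobic at neither position, 1.22 ± 0.0430 at 1 position and 1.18 ± 0.0530 at both (SD, n = 3). In the CTXpre/CD4post group they were 1.42 ± 0.220, 1.41 ± 0.174 and 1.35 ± 0.124 (SD, n = 5). Clonotypes hydrophobic at 1 position only made up 35.3% ± 1.14 and 34.95% ± 0.646 of clonotypes in the CTXpre and CTXpre/CD4post groups.

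The most abundant CDR3 hydrophobic at positions 6 and 7 of each mouse is shown with codons 6 and 7 in capitals. Of the 4 that tied at the top in CTXpre mouse 2, the first in alphabetical order is given. These sequences read, at codons 6 and 7, as AW, VI and AF in the CTXpre mice and as AL, AL, AV, VL and II in the CTXpre/CD4post mice.
CTXpre mouse 1, TRBV16 and TRBJ2-4: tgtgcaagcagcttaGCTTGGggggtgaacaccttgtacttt
CTXpre mouse 2, TRBV16 and TRBJ1-1: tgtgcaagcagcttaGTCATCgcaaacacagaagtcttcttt
CTXpre mouse 3, TRBV1 and TRBJ1-4: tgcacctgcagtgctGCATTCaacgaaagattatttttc
CTXpre/CD4post mouse 1, TRBV3 and TRBJ2-7: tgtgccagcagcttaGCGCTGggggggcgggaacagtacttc
CTXpre/CD4post mouse 2, TRBV16 and TRBJ2-2: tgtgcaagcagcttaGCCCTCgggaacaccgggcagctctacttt
CTXpre/CD4post mouse 3, TRBV13-2 and TRBJ1-4: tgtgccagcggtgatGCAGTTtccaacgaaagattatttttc
CTXpre/CD4post mouse 4, TRBV1 and TRBJ2-5: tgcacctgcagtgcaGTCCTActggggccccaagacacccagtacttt
CTXpre/CD4post mouse 5, TRBV13-1 and TRBJ1-1: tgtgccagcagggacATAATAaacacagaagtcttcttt
In the CTXpre mice these had 6, 3 and 7 reads. In the CTXpre/CD4post mice they had 13, 11, 8, 17 and 13 reads. The largest, of 17 reads, was 0.17% of its library (Wilson 95% interval 0.106% to 0.272%, which covers counting error only, since PCR reads without molecular identifiers are not independent molecules). None of them led its library: their ranks among CDR3s of 12 to 16 residues were 24, 53 and 13 in the CTXpre and 24, 9, 28, 15 and 52 in the CTXpre/CD4post mice. A clonotype not found in a library may still make up to 0.03% of it, the limit that a count of 0 in 10000 reads allows.

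Alanine was the most frequent residue at position 6 and tryptophan at position 7, as a description of the members, since these letters are the rule. Alanine stood at position 6 in 43.1% of them, valine in 20.7%, leucine in 13.8% and tryptophan in 8.54%, against 7.04%, 3.17%, 4.23% and 4.12% of all clonotypes of these lengths. At position 7, tryptophan made up 27.0%, leucine 25.5% and alanine 23.8%. Of 81 possible pairs 57 were seen, 21 of them in all 8 mice. The pairs with most clonotypes were AL with 210, AA with 184, AW with 175, VW with 129, VL with 92, YW with 82, LL with 74 and AV with 64, a number that WA also reached. Together the first 8 made up 59.1% of the members.

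Pairs that end in leucine or tryptophan mostly carried TRBD2, and the pair AA did so less, which was not tested. The D segment is named from bases that also code for these residues, and TRBD2 itself holds codons for leucine and tryptophan. These shares are therefore descriptions. Among clonotypes with a named D segment, TRBD2 was named in 98.7% of YW, 93.3% of LL, 92.9% of VL, 89.4% of VW, 86.3% of AW and 82.7% of AL, against 50.0% of AA. The TRBV13 family made up 58.1% of AL, 57.1% of AA and 53.7% of AW, against 9.76% of YW. Between groups, 0 of the 11 hydrophobic pairs with enough reads to be tested passed (edgeR quasi-likelihood test on reads, Benjamini-Hochberg over 146 residue pairs of all kinds, of which 0.0% were called). The lowest adjusted p among them was 0.711, for LL at a log2 difference of -0.78 ± 0.43 (approximate SE), and 0 of the 11 had an unadjusted p under 0.05, as with DESeq2.

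Hydrophobic residues stood next to each other at positions 6 and 7 less often than the separate shares of both positions would give. Position 6 was hydrophobic in 20.6% ± 0.646 and position 7 in 20.8% ± 0.756 of clonotypes of 12 to 16 residues (SD, n = 8 mice). The product of these shares is 4.28% ± 0.186, while both were hydrophobic in 3.13% ± 0.212, a ratio of 0.733 that ranged from 0.678 to 0.817 and was below 1 in all 8 mice. The neighbouring positions 7 and 8 had the ratio 0.642 ± 0.0377, positions 8 and 9 the ratio 0.862 ± 0.0347, and positions 5 and 6 and positions 9 and 10 were near 1, at 1.03 ± 0.0323 and 1.02 ± 0.0386. Positions 4 and 5, where position 4 was hydrophobic in 1.14% of clonotypes, had the ratio 0.381 ± 0.156, positions 3 and 4 the ratio 2.30 ± 0.289, and positions 10 and 11 the ratio 0.966 ± 0.046. These ratios are descriptions of the same libraries, and none was tested.

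**Figure D2:**
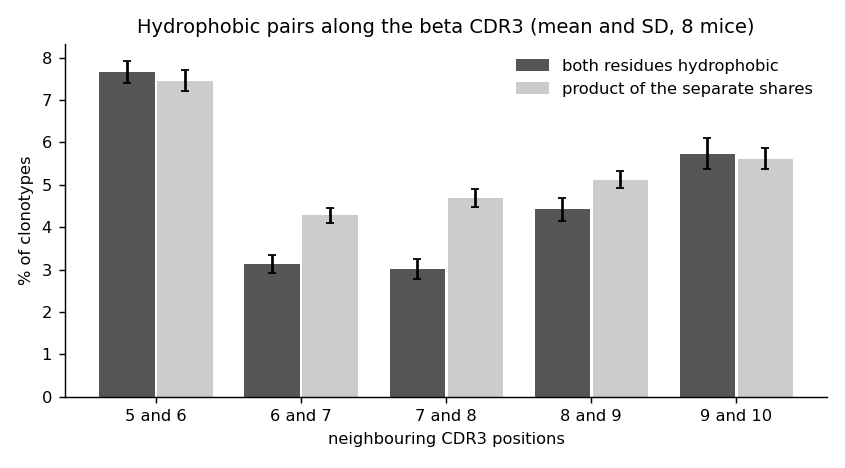
Share of clonotypes of 12 to 16 residues with hydrophobic residues at both of 2 neighbouring CDR3 positions (dark bars) and the product of the separate shares of the positions (light bars), in % (mean and SD of 8 mice). Of the 5 pairs of positions plotted, the dark bar is below the light bar at positions 6 and 7 (3.13% against 4.28%), 7 and 8, and 8 and 9.

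The share of hydrophobic CDR3s differed with the D segment named for a clonotype. Among clonotypes with TRBD1, 0.814% ± 0.186 were hydrophobic at positions 6 and 7, against 4.54% ± 0.431 of those with TRBD2 and 5.09% ± 0.619 of those with no named D segment (SD, n = 8 mice). The TRBD1 values were 0.601%, 0.814% and 0.884% in the CTXpre and 1.13%, 0.549%, 0.741%, 0.936% and 0.856% in the CTXpre/CD4post mice. The TRBD2 values were 4.55%, 4.18% and 4.43% in the CTXpre and 3.83%, 4.72%, 4.57%, 5.29% and 4.78% in the CTXpre/CD4post mice, so that the lowest TRBD2 value was above the highest TRBD1 value. TRBD2 made up 73.0% to 87.5% of members with a named D segment and 41.7% to 44.3% of the others, a mean difference of 38.2 percentage points. The aligner names the D segment from the bases that also code for positions 6 and 7, so this is given as a description, and it is not among the 10 tests adjusted together.

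The same holds for where the bases of both codons came from. Codon 6 lay wholly within the D segment in 6.56% ± 1.99 of the members and in 45.0% ± 0.740 of the others (SD, n = 8 mice), and codon 7 in 35.7% ± 3.19 and 54.9% ± 0.498. Most members had a codon 6 of mixed origin, 70.6% ± 2.47 against 38.8% ± 0.584 of the others, and it was wholly made of bases assigned to no segment in 20.9% ± 2.30 of the members and 13.8% ± 0.436 of the others. Among clonotypes with a named D segment, members held 0.593 more inserted bases than the others on average, in 8 of 8 mice (2.76 to 3.50 against 2.41 to 2.54). They held 1.11 more without alanine in the residue set. This leaves out the 41.5% of members and 24.9% of the others with no named D segment (pooled over mice). Of named D stretches, 67.9% were found in the germline D segment, so these origins and numbers are approximate.

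Mean length, which the rule did not use within its limits, did not pass after adjustment although members were longer on average in each mouse. It exceeded that of the other clonotypes by 0.236 ± 0.0656 residues (SD, n = 8), in 8 of 8 mice (exact sign-flip test, p = 0.00781, the smallest it can give, adjusted p = 0.0781 over the 10 tests). The difference was 0.0775 residues among CDR3s of 13 to 15 residues and 0.361 without alanine in the residue set. The share that was hydrophobic at both positions was 2.41% ± 0.470 at 12, 2.61% ± 0.355 at 13, 2.98% ± 0.342 at 14, 3.39% ± 0.400 at 15 and 4.94% ± 0.428 at 16 residues (SD, n = 8 mice). The values at 16 residues (4.30% to 5.54%) did not overlap those at 15 residues (3.01% to 4.23%), while the neighbouring lengths below overlapped.

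V segment use of these clonotypes differed from that of the others. Of 22 V segments tested, 8 passed (36.4%; edgeR quasi-likelihood test on numbers of clonotypes with mouse as a block, Benjamini-Hochberg adjusted p under 0.05), 4 higher (18.2%) and 4 lower (18.2%) among the members. Without TMM, which scales the columns so that most segments do not differ, 4 were higher and 9 lower, and the median over segments moved from -0.10 to -0.33. DESeq2 called 7, 4 higher and 3 lower, without TRBV4 (adjusted p = 0.0898). Numbers of clonotypes were found for 24 V segments, 23 of them with a member. The 4 that were higher were TRBV13-2, TRBV13-1, TRBV3 and TRBV16, and the 4 lower TRBV29, TRBV17, TRBV19 and TRBV4.

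TRBV13-2 had the largest difference, a log2 fold change of 1.42 ± 0.10 (approximate SE, adjusted p = 6.6e-14, edgeR). Of its clonotypes, 7.48%, 6.38% and 7.38% were hydrophobic at both positions in the CTXpre mice and 6.70%, 7.06%, 6.15%, 6.81% and 6.82% in the CTXpre/CD4post mice, each above the share over all segments in the same mouse. For TRBV13-1, with a log2 fold change of 1.06 ± 0.10, the values were 5.97%, 5.48% and 5.98% in the CTXpre and 4.43%, 5.08%, 4.80%, 5.30% and 6.92% in the CTXpre/CD4post mice. The whole TRBV13 family made up 39.03% of the members and 25.9% of the others. The most frequent combination was TRBV13-1 with TRBJ2-7, with 69 members, of 202 V-J combinations that held any.

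TRBV13-3 did not follow TRBV13-1, although both have the same germline end. Its share of hydrophobic CDR3s was 2.08%, 2.02% and 2.52% in the CTXpre and 3.00%, 3.65%, 3.25%, 2.45% and 2.34% in the CTXpre/CD4post mice. Pooled over mice it was 2.64%, against 3.13% over all segments, and it lay above the share over all segments only in CTXpre/CD4post mice 1, 2 and 3. After scaling, its log2 fold change against the other clonotypes was -0.02 ± 0.13 (adjusted p = 0.901, edgeR), and 0.05 with DESeq2. The germline end was whole in 29.1% ± 1.38 of TRBV13-1, 33.4% ± 2.62 of TRBV13-2 and 16.1% ± 1.20 of TRBV13-3 clonotypes (SD, n = 8 mice). Among clonotypes with the whole end, 13.1% ± 2.24, 15.9% ± 2.49 and 7.72% ± 1.34 were hydrophobic at both positions, and among those with a trimmed end 2.36% ± 0.637, 2.37% ± 0.832 and 1.69% ± 0.808. Alanine stood at position 6 in 16.2% ± 1.38 of TRBV13-1, 21.3% ± 1.34 of TRBV13-2 and 9.14% ± 1.06 of TRBV13-3 clonotypes. A whole end is read from the first base of codon 6, which also bears on membership, and the split by the V end was chosen after the values were seen and has no test.

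**Figure D3:**
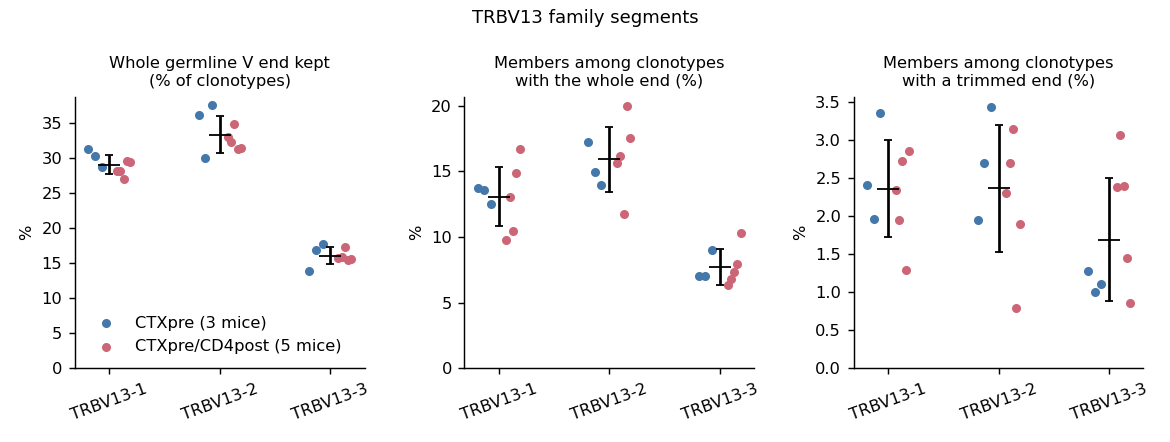
TRBV13 family in each mouse (points; bars are the mean and SD of 8 mice): share of clonotypes with the whole germline V end, share hydrophobic at positions 6 and 7 among these, and the same share among clonotypes with a trimmed end, each in %. In all 3 segments the share is higher with the whole end, and TRBV13-3 kept it least often, in 16.1% of clonotypes.

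With alanine left out of the residue set, the family no longer stood out: the log2 fold change was 0.14 for TRBV13-2 (adjusted p = 0.820, edgeR) and -0.01 for TRBV13-1 (adjusted p = 0.968), while TRBV13-3 was lower, at -0.52 (adjusted p = 0.0197). TRBV4 also missed the threshold then, at -0.07 (adjusted p = 0.968). Of the 8 segments called, 5 were called in the same direction under that set, which called 2 higher and 6 lower.

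Of the other segments that were higher, TRBV16 had 231 members and a log2 fold change of 0.61 ± 0.10, and TRBV3 had 105 members and 0.73 ± 0.16. In the fit within TRBD1 clonotypes both values were below 0, at -0.58 and -0.12. That fit called 1 V segment higher and 6 lower, and TRBV13-1 missed the threshold (0.72, adjusted p = 0.0538, edgeR). Its median log2 fold change over segments was -1.01, against -0.10 in the main fit, so its signs are not those of the shares. Pooled over mice, 1.11% of TRBV3 and 0.797% of TRBV16 clonotypes with TRBD1 were members, against 0.804% of all clonotypes with TRBD1. Within TRBD2 clonotypes 3 were called higher and 5 lower, and TRBV13-1 was at 0.90 (adjusted p = 1.06e-05, edgeR). Of the 8 calls 7 were kept there, and TRBV3 missed the threshold. Among TRBV3 clonotypes 3.36%, 4.57% and 3.47% were hydrophobic at both positions in the CTXpre and 3.67%, 3.93%, 2.05%, 7.47% and 6.47% in the CTXpre/CD4post mice, a wide spread in which mice 4 and 5 were highest. TRBV29 had the lowest share among the 19 segments with at least 300 clonotypes, 1.28% ± 0.458 (SD, n = 8 mice), and a log2 fold change of -1.15 ± 0.20. Its values were 1.52%, 0.885% and 0.829% in the CTXpre and 1.31%, 0.783%, 1.27%, 1.49% and 2.15% in the CTXpre/CD4post mice. TRBV17 and TRBV19 were lower by -0.72 ± 0.19 and -0.72 ± 0.21, and TRBV4 by -0.55 ± 0.17. These 3 missed the threshold without CTXpre mouse 2 (adjusted p = 0.0552 for each, edgeR), which left 5 calls. Their log2 fold changes stayed below 0 with each mouse left out in turn. They ranged from -0.97 to -0.58 for TRBV17, -0.94 to -0.56 for TRBV19 and -0.64 to -0.49 for TRBV4. TRBV14, the V segment of the Pmel-1 β-chain, did not pass (log2 fold change 0.22 ± 0.16, or -0.01 without TMM, adjusted p = 0.361, edgeR), and 3.09% ± 0.889 of its clonotypes were members.

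**Figure D4:**
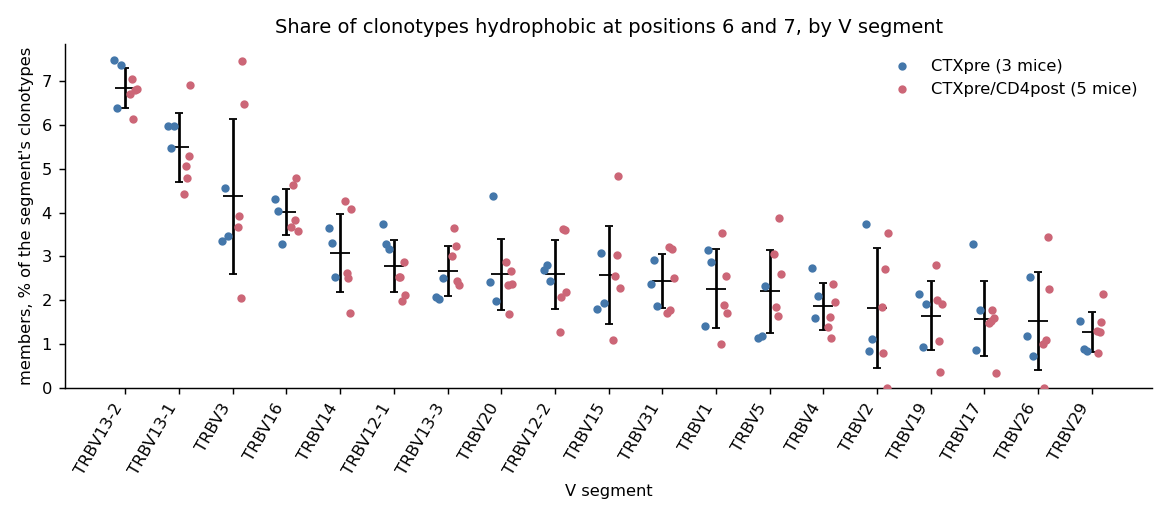
Share of the clonotypes of each V segment that were hydrophobic at positions 6 and 7, in %, for the 19 segments with at least 300 clonotypes of 12 to 16 residues; points are mice, bars the mean and SD of 8 mice. TRBV13-2 (6.85%) and TRBV13-1 (5.50%) are highest, and TRBV29 (1.28%) lowest.

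J segment use also differed. Codon 7 lay wholly within the J segment in 13.7% ± 1.72 of the members (SD, n = 8 mice), so these tests are not independent of the rule either. Of 12 J segments 8 passed (66.7%; the same test), 5 higher (41.7%) and 3 lower (25.0%) among the members. Without TMM 3 were higher and 6 lower, and TRBJ2-1 and TRBJ2-4 missed the threshold. DESeq2 called 7, 5 higher and 2 lower, without TRBJ1-1 (adjusted p = 0.0596). On reads in place of clonotypes 4 of the 8 were kept, TRBJ2-3, TRBJ2-5, TRBJ1-3 and TRBJ1-5. TRBJ2-3 was higher by 0.57 ± 0.13, TRBJ2-5 by 0.50 ± 0.13, TRBJ2-7 by 0.37 ± 0.08 and TRBJ2-4 by 0.35 ± 0.15 on the log2 scale, and TRBJ2-1 by 0.35 ± 0.11. TRBJ2-2 did not pass (-0.03 ± 0.19, adjusted p = 0.874, edgeR). TRBJ1-5 was lower by -1.43 ± 0.26, TRBJ1-3 by -1.33 ± 0.23 and TRBJ1-1 by -0.44 ± 0.19. The TRBJ2 cluster, which lies downstream of TRBD2, made up 81.3% of the members and 69.2% of the others, shares that were not tested. TRBJ1-5 held 14 members among its 1320 clonotypes, at 1.71%, 0.939% and 1.6% in the CTXpre and 0.595%, 1.61%, 0.633%, 1.17% and 0.0% in the CTXpre/CD4post mice. TRBJ2-3 was at 5.22%, 3.31% and 4.85% in the CTXpre and 4.05%, 3.93%, 3.77%, 4.19% and 3.27% in the CTXpre/CD4post mice, so the ranges of these J segments did not overlap.

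Within a D segment, 1 J segment was called, while the mean share of members was higher with TRBJ2 than with TRBJ1, which was not tested. In CTXpre/CD4post mouse 3 the order was the opposite for TRBD1 (0.855% with TRBJ1 and 0.654% with TRBJ2) and where no D segment was named (4.21% and 4.04%). Among clonotypes with TRBD2, 0 of the 10 J segments tested passed (3 had an unadjusted p under 0.05, edgeR), and among those with TRBD1 1 of 12 did, TRBJ1-5 (adjusted p = 0.0122). Some lost calls kept their size. Over the 9 alternatives with all mice, these 2 fits included, the log2 fold change was -2.62 to -1.30 for TRBJ1-3 (main -1.33). For TRBJ1-1 it was -2.26 to -0.42 (main -0.44). The log2 fold changes of TRBJ2-1, TRBJ2-3, TRBJ2-5 and TRBJ2-7 were below 0 in the TRBD1 fit. The median over segments in that fit was -0.44, against -0.18 in the main fit. The mean share with TRBJ2 as a cluster stayed above that with TRBJ1 within TRBD1. TRBD1 clonotypes were hydrophobic at both positions in 0.560% ± 0.231 with TRBJ1 and 1.01% ± 0.271 with TRBJ2, and TRBD2 clonotypes in 2.22% ± 1.12 with TRBJ1 and 4.67% ± 0.494 with TRBJ2 (SD, n = 8 mice). Where no D segment was named, the share was 4.28% ± 0.612 with TRBJ1 and 5.67% ± 0.891 with TRBJ2. The order of the locus does not allow TRBD2 to join TRBJ1 by deletion, yet 934 of the 18027 clonotypes with TRBD2 (5.18%) were assigned TRBJ1. These 2 fits were added after the data were seen, and each tested fewer clonotypes. TRBJ1-1 and TRBJ2-4 missed the threshold with 4 of 8 mice left out in turn, and TRBJ2-5 and TRBJ2-7 without CTXpre/CD4post mouse 4 (adjusted p = 0.0777 for each, edgeR). With alanine left out of the residue set, TRBJ2-1, TRBJ2-3 and TRBJ2-4 missed it too, and of 9 J segments called then 2 were higher and 7 lower.

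**Figure D5:**
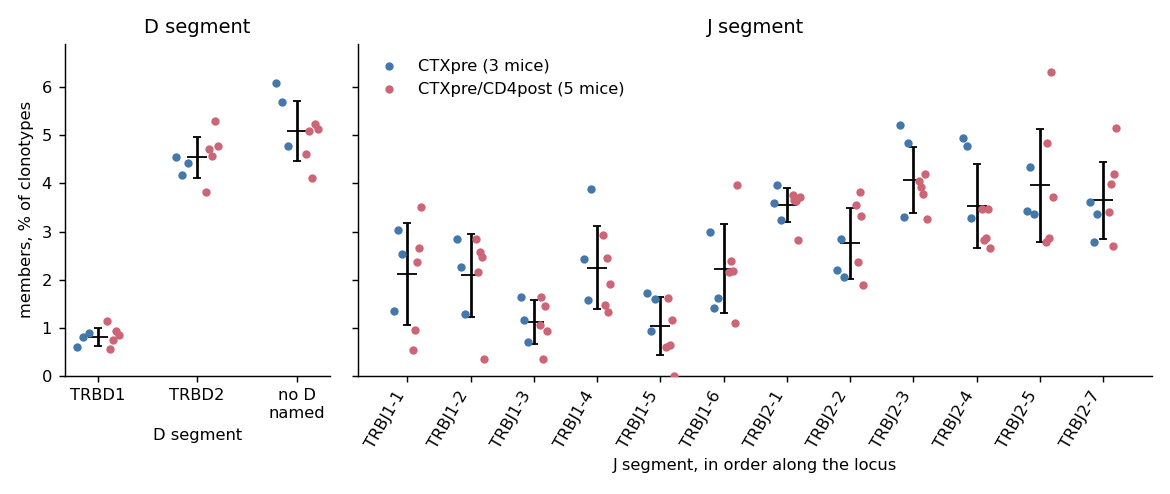
Share of clonotypes hydrophobic at positions 6 and 7, in %, by the D segment named (left) and by J segment (right); points are mice, bars the mean and SD of 8 mice. TRBD1 (0.814%) lies below TRBD2 (4.54%) in each mouse, and TRBJ1-3 and TRBJ1-5 are the lowest J segments.

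Between groups, no V or J segment of these clonotypes passed. Of 9 V segments with enough member reads, 0 were called (edgeR on reads, 0.0% of the 31 rows of members and others), 1 had an unadjusted p under 0.05, and DESeq2 called 0, with 2 under 0.05. That segment was TRBV12-1, at a log2 difference of -0.87 ± 0.26 in reads (adjusted p = 0.112, edgeR). Of its clonotypes 3.74%, 3.29% and 3.17% were hydrophobic at both positions in the CTXpre and 2.54%, 2.54%, 1.98%, 2.88% and 2.13% in the CTXpre/CD4post mice, and it was the only one of the 19 V segments with at least 300 clonotypes whose groups did not overlap. Of 9 J segments, 0 were called (0.0% of 21 rows) and 0 had an unadjusted p under 0.05 with edgeR or DESeq2. No difference between groups in the preference for V segments among members was called in 22 segments (edgeR interaction, 0.0% called, 2 with an unadjusted p under 0.05, and 0 with DESeq2). Those 2 were TRBV13-3, at a log2 difference of 0.57 ± 0.22, and TRBV5, at 0.92 ± 0.37, both with an adjusted p of 0.318, so that differences of this size cannot be told from none with these mice.

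Few of these CDR3s were found in more than 1 mouse. Of 1630 amino acid clonotypes (the same CDR3 amino acids, V and J), 60 were seen in 2 or more mice (3.68%), against 2358 of 49522 of the others (4.76%). Within a mouse, 7.75% ± 1.83 of members and 10.5% ± 0.658 of the others were also found in another mouse (SD, n = 8), lower for members in 7 of 8 mice, a comparison with no test. Of the members found in 3 or more mice, 4 are shown with codons 6 and 7 in capitals, each in its most abundant nucleotide form.
TRBV16 and TRBJ1-2: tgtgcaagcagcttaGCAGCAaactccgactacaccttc
TRBV13-2 and TRBJ1-4: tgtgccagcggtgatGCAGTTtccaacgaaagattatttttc
TRBV3 and TRBJ2-7: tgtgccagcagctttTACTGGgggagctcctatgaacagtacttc
TRBV16 and TRBJ2-5: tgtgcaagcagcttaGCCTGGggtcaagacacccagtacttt
The CDR3 of TRBV16 and TRBJ1-2, with the pair AA, was in 5 mice with 1, 2 and 1 reads in the CTXpre mice and 1 and 1 reads in CTXpre/CD4post mice 1 and 2, in 4 nucleotide forms. The other 3 shown were in 3 mice each. That of TRBV13-2 and TRBJ1-4 had 1 read in CTXpre mouse 1 and 8 and 1 reads in CTXpre/CD4post mice 3 and 4, and that of TRBV3 and TRBJ2-7, with the pair YW, had 2, 2 and 1 reads in CTXpre/CD4post mice 3, 4 and 5. The most abundant member of CTXpre/CD4post mouse 1, with 13 reads there, had 1 read in mouse 2.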

How the data were processed

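RNA of sorted en-T cells (100 ng per mouse) went through nested PCR of mouse TCR chains and was sequenced on a MiSeq. The authors removed adapters and short reads, aligned reads in MiXCR, extracted chains with VDJtools and down-sampled each library, so the deposited counts are whole reads per clonotype and sum to 10000. The versions of MiXCR and VDJtools and the segment reference are not given in the sources used here; the submitters' processing notes name mm10. The deposited positions where V, D and J end or start were read as 0-based and inclusive: the base at the V end matched the germline in 99.0% of clonotypes and the base after it in 1.81%. Named D stretches were found in the germline D segment in 67.9%.

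Members and lists were chosen with earlier results of these data known. The named clonotypes were the most abundant member of each mouse and up to 6 amino acid clonotypes found in most mice, of which 1 is not reported here. Named segments were at most 8 V and 4 J on each side with an adjusted p under 0.05, by size, with the TRBV13 family and TRBV14 whatever their values, and TRBJ2-1, TRBJ2-2, TRBV12-1 and TRBV5 after their values were seen. The 8 most frequent residue pairs were named, and LL again as the tested pair with the lowest p. Shares were computed per mouse and compared between groups by a Mann–Whitney U-test (two-sided, exact over 56 splits), or within mice by the exact sign-flip test over 256 sign patterns (Python 3.11.15, scipy 1.17.1). Of 12 such tests, 10 were adjusted together by Benjamini-Hochberg; those of the TRBD2 share and of inserted bases, read from the bases the rule uses, were left out. Numbers of clonotypes or reads per segment or residue pair, with at least 10 in at least 3 columns, entered quasi-likelihood tests with TMM scaling (edgeR 4.0.16 in R 4.3.3); DESeq2 1.42.0 was an alternative. Standard errors are approximate, from the fold change and its F statistic. Clonotypes of 1 library are not independent animals, and the labels give 1 library per mouse.

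Coordinates are those of GENCODE vM21 on GRCm38, the same build as mm10. The steps were tested on simulated data with known changes. The α-chain libraries were not used here. Replicate numbers did not pair mice across groups.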

Additional observations from a re-analysis of the deposited data

How the results depend on the processing

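Differences between groups are CTXpre/CD4post minus CTXpre, in percentage points unless a log2 fold change is named. Without clonotypes of 1 read, the difference in the share of clonotypes turned to 0.091 and in the share of reads to 0.123. With the replicate number as a block these differences were -0.225 and -0.186, and at 13 to 15 residues -0.155 and -0.092. No group difference in either share passed a test under any alternative. With each mouse left out they ranged from -0.14 to 0.019 and from -0.21 to 0.043. The values with a mouse left out or with the block could not have passed. The smallest p is 0.0571 or 0.0952 with a mouse left out (exact Mann–Whitney U-test) and 0.25 with the block (exact sign-flip test). The gap between read and clonotype share over all mice had an unadjusted p of 0.0156 (exact sign-flip test) without C and Y in the residue set (-0.117) and without clonotypes of 1 read (-0.311), and ranged from -0.154 to -0.062 with mice left out. Its difference between groups turned to 0.018 with clonotypes merged by amino acids, 0.0062 without A, 0.063 at 13 to 15 residues, 0.032 without clonotypes of 1 read, 0.0016 without the most abundant clonotype, and ranged from -0.070 to 0.091 with mice left out. The difference in the share of 1-read clonotypes, members minus others, turned to 0.087 (merged), 0.603 (without A), 0.026 (without C and Y), 1.25 (without the TRBV13 family) and 0.059 (5000 reads), and ranged from -0.51 to 0.30 with mice left out; its group difference turned to 1.44 without A and ranged from -2.66 to 0.18. At 5000 reads per library the share of clonotypes of 10 or more reads was lower among members by -0.266 (p = 0.0234, exact sign-flip test), against -0.188 (p = 0.25) at 10000 reads and -0.049 (p = 0.898) without A. The cause was not tested.

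Without TMM 13 V segments were called, 4 higher and 9 lower against 4 and 4, and 9 J segments, 3 higher and 6 lower against 5 and 3; the median log2 fold change over V segments moved from -0.10 to -0.33. With mice left out, 5 to 9 V and 6 to 9 J segments were called. DESeq2 called 7 V and 7 J segments. On reads 5 J segments were called, 2 higher and 3 lower, with 4 of the 8 calls kept, and within TRBD1 1 and within TRBD2 0. Among the log2 fold changes that turned, TRBV13-1 was -0.014 without A. TRBV13-3 was 0.047 (DESeq2), 0.092 (reads) and -0.12 to 0.06 with mice left out. TRBV14 was -0.012 without TMM, -0.052 (reads), -0.93 (TRBD1) and -0.15 (TRBD2). Within TRBD1, TRBV16 was -0.58, TRBV3 -0.12, TRBJ2-1 -0.14, TRBJ2-3 -0.017, TRBJ2-5 -0.29 and TRBJ2-7 -0.011. The medians over segments in the TRBD1 fits were -1.01 for V and -0.44 for J, so these signs are not those of the shares. Over all alternatives, 271 values of the comparisons were kept and 25 turned, an unadjusted p fell under 0.05 in 4, and 5 counts of calls moved by over 1.5 times. Kept means the same direction and side of the threshold for single values. For counts of calls it means within 1.5 times the main count, whatever segments were called and in what direction. Named segments kept direction and side of the threshold in 249, turned in 16, gained the threshold in 2 and lost it in 38. The replicate numbers did not pair the mice (correlations of V use -0.11, -0.13 and -0.21 over 21 segments). With the replicate number as a block over 3 mice a group, the gap between read and clonotype share differed by 0.039 (p = 0.75, where 0.25 is the smallest 3 pairs allow, exact), and the block called 0 V segments, 0 J segments and 0 residue pairs. At 10000 reads most members rest on 1 read, so a clonotype missing from a library may lie below its depth.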

Other observations

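The pair VI (valine at position 6, isoleucine at position 7) was chosen after its values were seen. It held 5, 4 and 4 clonotypes in the CTXpre mice and 0, 0, 1, 1 and 0 in the CTXpre/CD4post mice, or 1.84% ± 0.199 (SD, n = 3) against 0.195% ± 0.268 (SD, n = 5) of the members of a mouse. It was the only one of the 32 pairs with at least 10 members whose groups did not overlap (3.12% of these pairs), it had too few reads for the test between groups, and no D segment was named in any of its 15 clonotypes. Without the filter on low counts, which let all 57 pairs seen into the test, 0 of them were called (edgeR on reads, 2 with an unadjusted p under 0.05). VI was among these 2, at a log2 difference of -2.38 ± 0.86 (approximate SE, adjusted p = 0.339, edgeR).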
